A study of Homo sapiens with 3 samples.

Results

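The 5 genes described here encode RNA helicases of the DExD/H-box family: DHX9, DDX5, DDX17, DDX3X and DDX6. They were taken by gene name from 3 deposited lists of A-to-G sites, and DDX41 itself was not included. The rule used names and no values, but earlier results of these data were known when the genes were chosen. The 5 genes held 35 distinct listed positions of 16820 in all, and they are 5 of 4245 listed genes. By list, they held 23 of 10407 positions of DDX41-ADARcd against ADARcd alone, 7 of 3516 positions of DDX41-ADARcd against the empty vector and 12 of 6413 positions of ADARcd alone against the empty vector.

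The study applied HyperTRIBE to THP-1, a monocytic leukemia line of human origin. HyperTRIBE fuses a protein that binds RNA with a hyperactive catalytic domain of ADAR, the enzyme that turns adenosine into inosine, so that RNA close to the protein is read with G in place of A. The 3 groups, with 1 library each, were cells that received DDX41 fused to the domain (DDX41-ADARcd), cells that received the domain without a partner (ADARcd alone) and cells that received the empty virus (empty vector). All 3 used a pGK-GFP retrovirus made in 293T cells, a human packaging line, and total RNA was collected at day 7 from THP-1 cells kept in the same medium. The transgenes were expressed from a virus and not from the DDX41 locus.

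DExD/H-box helicases use ATP to open RNA duplexes or to strip proteins from RNA. DHX9 is a DEAH-type helicase of the nucleus that binds double-stranded RNA, and DDX5 and DDX17 are closely related nuclear DEAD-box proteins that act in splicing, transcription and, with DROSHA, in microRNA processing. DDX3X acts in the translation of mRNAs with structured leaders, and DDX6 acts in mRNA decapping and translational repression in the cytoplasm. The lists measure edits in the mRNAs of these genes, and say nothing of where the helicase proteins bind.

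The counts show how positions were listed. The library named first had 1 edited read or more, its control had no edited read among 10 or more, and A made up 80% or more of the control reads. A position that the control edits cannot be listed, and a position with no edited read in the first library is not listed either. Editing levels are given as the edited reads in percent of all reads at a position, and 1 edited read is therefore the lowest level that a listed position can have at its depth. With 1 library per group there is no replicate error. Intervals of levels and shares are therefore exact Clopper-Pearson 95% intervals on reads, and tests compare the reads of 2 libraries and not the conditions. Intervals of medians come from order statistics over positions and treat positions as independent, although neighbouring positions may share reads. For the 7 positions of DDX41-ADARcd against the empty vector, that interval is the lowest and highest level. Intervals of levels and shares, and the limits given for a count of 0 (3 reads of the depth), reflect counting error alone, because reads without molecular identifiers are not independent molecules. Over all listed positions the median depth was 30 reads for DDX41-ADARcd and 45 for its control ADARcd alone, 220 in DDX41-ADARcd and 30 in the empty vector, and 286 in ADARcd alone and 27 in the empty vector. Of 19 markers of THP-1 cells, 15 had a listed position in at least 1 list, and of 7 markers of other cells 0 had one. CD33, MPO, ITGAM and CD14 had none, which says nothing of their level, since the lists hold edited positions only.

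The sequences below are those of the 3 positions with 2 or more edited reads, of the pair and the run of positions that lie close together, and of a DDX3X position that has the same neighbouring bases as the DHX9 one. They are GENCODE 29 transcript sequence in the sense of the mRNA, 5′ to 3′, with each edited A in capitals and positions on GRCh38. The last 3 were chosen after their values were seen.
DHX9, coding exon 12, chr1:182860130, + strand: agttcattctAgatgacttta
DDX17, coding part of exon 13, chr22:38486031, - strand: aacagtttgcAcagcctccgg
DDX6, 3′ UTR in exon 14, chr11:118750337, - strand: tgcccctcccAacatgcttga
DDX5, coding exon 12, chr17:64500604-64500605, - strand: gtgcttcgtgAAgctaatcaag
DDX17, 3′ UTR in exon 13, chr22:38484216-38484244, - strand: AtcttAcagAagttgaggccaagggAgaA
DDX3X, coding exon 10, chrX:41344355, + strand: caggacgtctAgtggatatga

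Editing of the 5 helicase mRNAs was sparse in both libraries that carried the domain. Of the 35 positions, 32 rested on 1 edited read, and the other 3 were the DHX9 position with 9 edited reads and the DDX17 position with 2 in ADARcd alone, and the DDX6 position with 2 in DDX41-ADARcd. The median level was 2.27% (1.61 to 3.33) over the 23 positions of DDX41-ADARcd against ADARcd alone, beside 3.70% (3.57 to 3.85) over all positions of that list. Against the empty vector, the 7 positions of DDX41-ADARcd had a median of 1.19% (0.694 to 3.03), beside 0.515% (0.488 to 0.546) over all. For the 12 positions of ADARcd alone it was 0.629% (0.565 to 1.10), beside 0.434% (0.418 to 0.452) over all. Depth at the helicase positions stood apart from the lists as a whole, with median reads of 48, 84 and 159 for the edited library in that order of lists. The share of positions with 1 edited read was 95.7% (22 of 23), 100% (7 of 7) and 83.3% (10 of 12) for the helicases, against 83.9%, 81.5% and 74.8% over all positions of the lists.

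**Figure D1:**
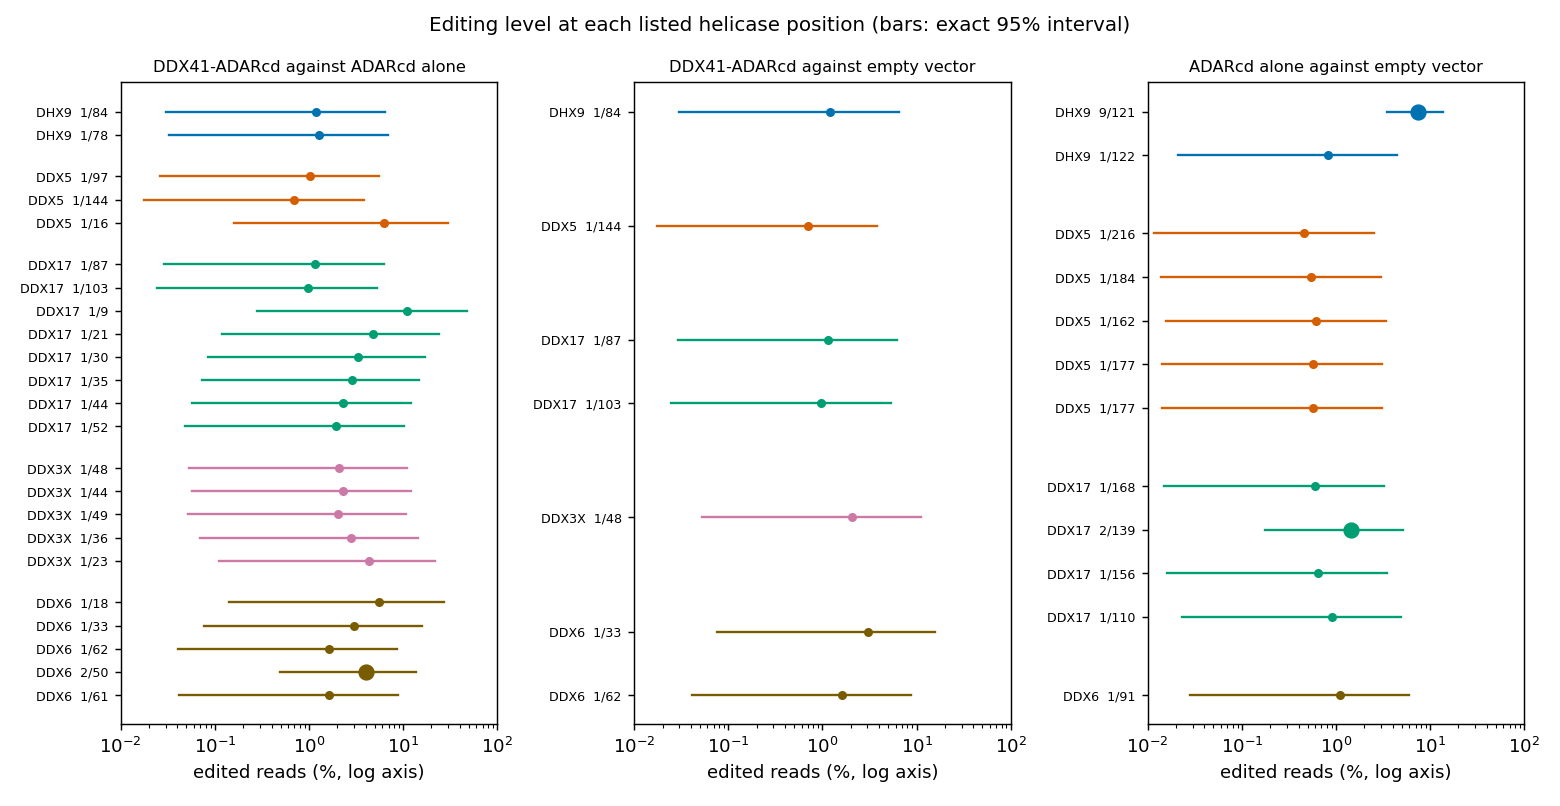
Percent of reads edited (log axis) at each listed helicase position, 1 panel per list, with the edited reads over all reads at the left and bars for the exact 95% interval. Larger points have 2 or more edited reads, and the DHX9 position at 7.44% in ADARcd alone stands to the right of the other helicase positions of its list.

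No helicase position passed the test in any list. The two-sided Fisher's exact test, with Benjamini-Hochberg adjustment over all positions of a comparison and a threshold of 0.05, called 0 of 22 tested helicase positions for DDX41-ADARcd against ADARcd alone, where 0.282% of 9227 positions were called in all. None of those calls was higher in DDX41-ADARcd (0.0% of 9227). All 26 were among 400 tested positions edited in both libraries (6.5% of them), which were added to the list and include no helicase position, and 0.0% of the 8827 tested positions of the list itself were called. It called 0 of 7 for DDX41-ADARcd against the empty vector, where 0.0% of 3512 positions were called, and 0 of 12 for ADARcd alone against the empty vector, where 0.203% of 6412 were called. At an unadjusted p under 0.05 the counts for the helicases were also 0, 0 and 0, against 79, 3 and 35 over all positions tested. For an unadjusted p under 0.05, the helicase positions would have needed levels of 2.08% to 18.75% in DDX41-ADARcd against ADARcd alone (22 tested positions), and of 9.03% to 33.3% in DDX41-ADARcd with the empty vector as control. Positions of ADARcd alone would have needed 13.0% to 28.9%. Differences below those levels were not detectable at this depth.

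The lists of helicase positions overlap in part by construction. All 7 helicase positions that DDX41-ADARcd had against the empty vector recurred among its 23 against ADARcd alone, so these lists hold the same edited reads and are not independent. For all genes together 3114 of 3516 positions recurred in this way, and at such a share 7 of 7 is no result about the helicases. With the empty vector as control, 0 positions were shared between the 7 of DDX41-ADARcd and the 12 of ADARcd alone. Over all genes 402 were shared, which is 11.4% of the DDX41-ADARcd list and 6.27% of the ADARcd alone list, and at such shares 0 of 7 or of 12 is no result about the helicases. A position edited in ADARcd alone cannot be listed against ADARcd alone, so the 7 that recurred and the 0 that were shared are not separate observations.

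DHX9 (ENSG00000135829.16, chr1:182839369-182887751, + strand) had 4 listed positions, each in a coding exon. The 2 of DDX41-ADARcd rested on 1 edited read each. At position 182884788 in exon 27 there was 1 edited read of 78 in DDX41-ADARcd (1.28%, 0.0325 to 6.94), against 0 of 126 in ADARcd alone. At position 182876903 in exon 19 there was 1 of 84 in DDX41-ADARcd (1.19%, 0.0301 to 6.46), against 0 of 115 in ADARcd alone and 0 of 16 in the empty vector. At both, the interval in DDX41-ADARcd includes the level of up to 2.38% and 2.61% that the 0 count in ADARcd alone allows.

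The highest count of edited reads at any helicase position was in ADARcd alone, at position 182860130 in exon 12 of DHX9. There 9 of 121 reads were edited in ADARcd alone (7.44%, 3.46 to 13.7), against 0 of 11 in the empty vector, which allows a level of up to 27.3%. The exact test gave p = 1, and 35 edited reads of 121 would have been needed for an unadjusted p under 0.05. Within its list, 132 of 6413 positions (2.06%) had at least 9 edited reads. Of the 2655 positions with a depth of that order (within a factor of 2), 43 (1.62%) reached its level. The change is at the last base of a codon and keeps the amino acid, and the reads held no base there other than A and G in either library. This position was not listed for DDX41-ADARcd, and the reads of DDX41-ADARcd there were not used here. The other DHX9 position of ADARcd alone, 182872491 in exon 15, had 1 edited read of 122 (0.820%, 0.0208 to 4.48), against 0 of 12 in the empty vector. It would change the amino acid, as would both positions of DDX41-ADARcd. For 3 of the 4 DHX9 positions, among them the one with 9 edited reads, the 21 bases around the edited A also occur in the pseudogene DHX9P1, while 51 bases around them do not occur in another gene. How reads shared with DHX9P1 were assigned is not known here.

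DDX5 (ENSG00000108654.14, chr17:64499616-64508199, - strand) had 8 listed positions, each with 1 edited read, and had the highest median depth of the 5 genes in each list. Of these, 7 lie in coding exons and 1 in an intron of the transcript used here, which another GENCODE transcript of DDX5 retains. In DDX41-ADARcd, position 64500556 in exon 12 had 1 edited read of 144 (0.694%, 0.0176 to 3.81), against 0 of 267 in ADARcd alone and 0 of 45 in the empty vector. Position 64504235 in exon 3 had 1 of 97 in DDX41-ADARcd (1.03%), against 0 of 166 in ADARcd alone. The intronic position 64501054 had 1 of 16 in DDX41-ADARcd (6.25%, 0.158 to 30.2), against 0 of 31 in ADARcd alone. It lies 160 bases from the hairpin of MIR5047 and 215 bases from that of MIR3064, both of which the annotation places in the DDX5 locus.

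In ADARcd alone, the 5 DDX5 positions had levels of 0.463% to 0.617%, with 162 to 216 reads in ADARcd alone and 11 to 26 reads in the empty vector. The highest level was at position 64502947 in exon 8, with 1 edited read of 162 in ADARcd alone (0.617%, 0.0156 to 3.39), against 0 of 24 in the empty vector. Positions 64500604 and 64500605, adjacent bases of 1 codon in exon 12, each had 1 edited read of 177 in ADARcd alone and 0 of 26 in the empty vector. The lists give counts per position, so whether 1 read carries both edits cannot be told apart from 2 reads with 1 edit each. The other 2 were position 64504089 in exon 4, with 1 of 184 in ADARcd alone and 0 of 11 in the empty vector, and position 64504748 in exon 2, with 1 of 216 in ADARcd alone and 0 of 19 in the empty vector. At position 64504748 the 21 bases around the edited A also occur in another annotated gene. Of the 7 coding positions of DDX5, 4 would change the amino acid and 3 would keep it.

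DDX17 (ENSG00000100201.20, chr22:38483440-38507660, - strand), the paralogue of DDX5, had 12 listed positions, the most of the 5 genes. They comprise 4 coding positions, 7 in the 3′ UTR and 1 in an intron of the transcript used here, which another GENCODE transcript of DDX17 retains. Against ADARcd alone it had 8 positions, and 162 of the 4036 genes of that list had more. In DDX41-ADARcd, 5 of these 8 fell within 29 bases of the 3′ UTR, the run printed above. Each had 1 edited read, of 21, 30, 35, 44 and 52 reads in DDX41-ADARcd from 5′ to 3′, against 0 of 54, 59, 67, 82 and 85 in ADARcd alone. The levels were 1.92% to 4.76%, and the smallest p among the 5 was 0.28 by Fisher's exact test. At 38484216, 1 read in DDX41-ADARcd and 2 in ADARcd alone held a base other than A or G. At 38484239, 1 read in ADARcd alone did, and the other positions of the run had no such read. The 9 bases before the run were all C. Counts per position do not show whether 1 read carried all 5 edits. Runs of 5 or more listed positions within 30 bases were found in 12 of 3943 genes in the list of DDX41-ADARcd against ADARcd alone. They were found in 12 of 934 genes where the empty vector was the control of DDX41-ADARcd, and in 21 of 1225 in the list of ADARcd alone. With the run counted as 1 position, DDX17 had 4 positions in DDX41-ADARcd against ADARcd alone, at a median control depth of 74.5 reads over the 8 positions. With the empty vector as control it had 2 in DDX41-ADARcd and 4 in ADARcd alone, at median control depths of 19.5 and 15.5 reads.

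Of the other DDX17 positions in DDX41-ADARcd, 38488082 in exon 12 had 1 edited read of 103 (0.971%, 0.0246 to 5.29), against 0 of 127 in ADARcd alone and 0 of 24 in the empty vector. Position 38494798 in exon 8 had 1 of 87 in DDX41-ADARcd (1.15%, 0.0291 to 6.24), against 0 of 147 in ADARcd alone and 0 of 15 in the empty vector. The intronic position 38490226 had 1 of 9 in DDX41-ADARcd (11.1%, 0.281 to 48.2), against 0 of 12 in ADARcd alone, and was too shallow to be tested. In ADARcd alone, position 38486031 in exon 13 had 2 edited reads of 139 (1.44%, 0.175 to 5.10), against 0 of 12 in the empty vector. At least 2 edited reads were seen at 1618 of 6413 positions (25.2%) of that list. The change keeps the amino acid. The other 3 had 1 edited read each in ADARcd alone, of 168 at 38494903 in exon 7, of 156 at 38484635 and of 110 at 38483740 in the 3′ UTR, against 0 of 18, 16 and 15 in the empty vector.

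DDX3X (ENSG00000215301.10, chrX:41333284-41364472, + strand) had 5 listed positions, all in DDX41-ADARcd and each with 1 edited read, and 0 in ADARcd alone. Position 41342500 in exon 5 had 1 edited read of 48 in DDX41-ADARcd (2.08%, 0.0527 to 11.1), against 0 of 77 in ADARcd alone and 0 of 10 in the empty vector. Position 41344355 in exon 10 had 1 of 44 in DDX41-ADARcd (2.27%), against 0 of 73 in ADARcd alone. Position 41346984 in exon 15 had 1 of 49 in DDX41-ADARcd (2.04%), against 0 of 87 in ADARcd alone. In the 3′ UTR, position 41347925 had 1 of 36 in DDX41-ADARcd (2.78%), against 0 of 62 in ADARcd alone, and position 41349938 had 1 of 23 in DDX41-ADARcd (4.35%), against 0 of 47 in ADARcd alone. The levels follow the depth, since each is 1 read. At 41344355 the 51 bases around the edited A also occur in DDX3Y, the paralogue on the Y chromosome. A read that lies wholly within that stretch cannot be told apart between the genes, and how such reads were assigned is not known here. At 41349938 the 21 bases around the edited A also occur in another annotated gene, but the 51 bases do not. The empty vector had 10 reads at 41342500, the lowest depth that a list admits. The count of 0 for ADARcd alone is a count of listed positions, and a position of DDX3X with fewer than 10 reads in the empty vector could not enter that list. Whether the counts of 5 and 0 differ was not tested, because positions without an edited read were not used here.

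DDX6 (ENSG00000110367.12, chr11:118747766-118791149, - strand) had 6 listed positions, of which 5 were in DDX41-ADARcd and outside the coding sequence. The 1 with most edited reads was position 118750337 in the 3′ UTR, with 2 of 50 in DDX41-ADARcd (4%, 0.488 to 13.7), against 0 of 62 in ADARcd alone, which allows a level of up to 4.84%. Its p of 0.197 (0.56 after Benjamini-Hochberg adjustment, Fisher's exact test) was the smallest at any helicase position. At this depth 4 edited reads would have been needed for an unadjusted p under 0.05. At least 2 edited reads were seen at 1677 of 10407 positions (16.1%) of that list. Also in the 3′ UTR, position 118748321 had 1 of 61 in DDX41-ADARcd (1.64%), against 0 of 63 in ADARcd alone. Position 118752082 had 1 of 62 in DDX41-ADARcd (1.61%), against 0 of 95 in ADARcd alone and 0 of 12 in the empty vector.

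The 5′ UTR of DDX6 held the only 2 listed helicase positions in a 5′ UTR, both in exon 2. Position 118786291 had 1 edited read of 33 in DDX41-ADARcd (3.03%, 0.0767 to 15.8), against 0 of 59 in ADARcd alone and 0 of 10 in the empty vector. Position 118786489 had 1 of 18 in DDX41-ADARcd (5.56%, 0.141 to 27.3), against 0 of 30 in ADARcd alone. The 1 position of ADARcd alone, 118779716 in exon 4, was coding, with 1 of 91 in ADARcd alone (1.10%, 0.0278 to 5.97), against 0 of 12 in the empty vector, and keeps the amino acid.

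**Figure D2:**
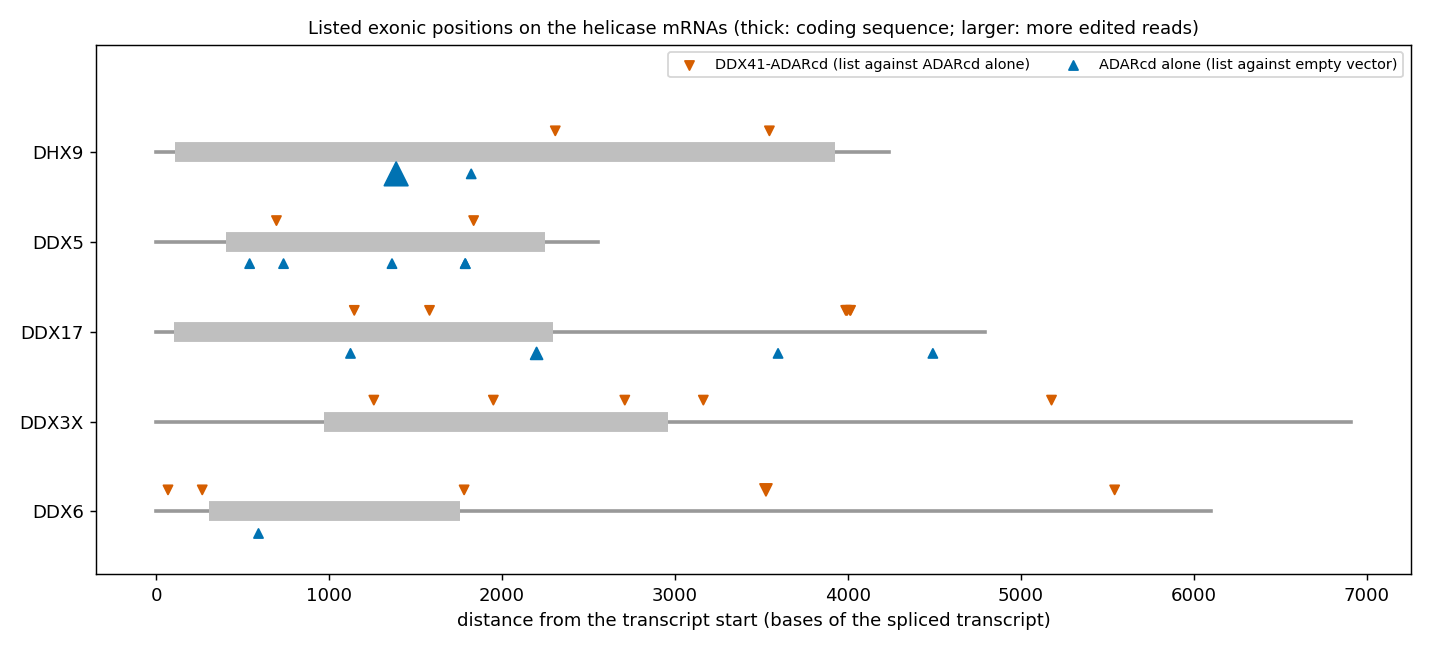
Listed exonic positions along the spliced mRNA of each helicase in bases from the transcript start, with the coding sequence as a thick bar, DDX41-ADARcd above and ADARcd alone below each mRNA. Larger triangles have more edited reads, and the 5 DDX17 positions within 29 bases overlap at the scale of the plot.

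By region, the 23 positions of DDX41-ADARcd against ADARcd alone comprised 9 coding, 2 in a 5′ UTR, 10 in a 3′ UTR and 2 intronic positions. The 7 against the empty vector comprised 5 coding, 1 in a 5′ UTR and 1 in a 3′ UTR. The 12 of ADARcd alone comprised 10 coding and 2 in a 3′ UTR. Of the 10 positions in a 3′ UTR in the first of these lists, 5 belong to the DDX17 run. Control depth differs between these lists, with a median at the helicase positions of 73 reads in ADARcd alone for the 23, and of 15 and 15.5 reads in the empty vector for the 7 and the 12, and its part in the shares by region was not tested. Of all 19 coding positions, 12 would change the amino acid and 7 would keep it. Per 1000 A of the mRNA, exonic positions of DDX41-ADARcd against ADARcd alone numbered 5.61 for DDX17, 2.78 for DDX6, 2.66 for DDX5, 2.54 for DDX3X and 1.62 for DHX9. For ADARcd alone against the empty vector the order was DDX5 with 6.66, DDX17 with 3.21, DHX9 with 1.62, DDX6 with 0.556 and DDX3X with 0.0. With that same control, DDX41-ADARcd had 1.603 for DDX17, 1.33 for DDX5, 1.11 for DDX6, 0.811 for DHX9 and 0.509 for DDX3X. These rates rest on 0 to 7 positions per gene and move with depth. The list against ADARcd alone has another control, and whether the order of genes differs between the libraries was not tested.

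The bases next to the edited A are a further property that the choice of genes did not use. Among positions of 5 or more edited reads in ADARcd alone over all genes (n = 254), T stood before the A at 45.3% and G at 4.33%, G stood after it at 55.5%, and T before with G after was found at 19.7%. Among the 35 helicase positions the shares were 14.3% (5) with T before, 28.6% (10) with G before, 31.4% (11) with G after and 5.71% (2) with both T before and G after. Every A of the 5 mRNAs (n = 6990) gave 20.3%, 24.5%, 26.1% and 4.23%. All listed positions with a transcript gave 13.5%, 28.8%, 37.5% and 3.58% for DDX41-ADARcd against ADARcd alone in the same order. For ADARcd alone against the empty vector they gave 25.7% with G before, 40.8% with G after and 5.28% with both T before and G after. The shares of the 35 helicase positions are a description and were not tested against those of the lists. The DHX9 position with 9 edited reads and the DDX3X position 41344355 with 1 were the 2 with T before and G after, as printed above.

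Total reads at the helicase positions were lower in DDX41-ADARcd than in ADARcd alone, as they were for most genes. Over the 23 positions the median ratio of reads in DDX41-ADARcd to reads in ADARcd alone was 0.592 (0.539 to 0.623), beside a median of 0.659 over the 527 genes with 5 or more listed positions (5th to 95th percentile 0.488 to 0.876). DHX9 had 162 reads in DDX41-ADARcd, against 241 in ADARcd alone, with a median ratio of 0.675 over 2 positions. DDX5 had 257 and 464 reads in the same libraries (ratio 0.539, 3 positions), and DDX17 had 381 and 633 (0.564, 8 positions). DDX3X had 200 reads in DDX41-ADARcd, against 346 in ADARcd alone (0.581, 5 positions), and DDX6 had 224 and 309 (0.653, 5 positions). All 5 ratios lay within the 5th to 95th percentile of the 527 genes, DDX5 lowest at percentile 11.4 and DHX9 highest at 57.5. The depth of whole libraries is unknown, so the ratio is not corrected for it. With 1 library per group, a difference in RNA level cannot be told apart from a difference between libraries. For scale, DDX41, which the fusion carries, had a ratio of 6.93 over its 23 listed positions, and ADARB1, a gene of the ADAR family, had 0.217 over 5, with 1130 reads in DDX41-ADARcd, against 5036 for ADARcd alone. The labels do not say from which ADAR gene the domain came, and the part of this difference in the editing of the helicases was not tested.

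**Figure D3:**
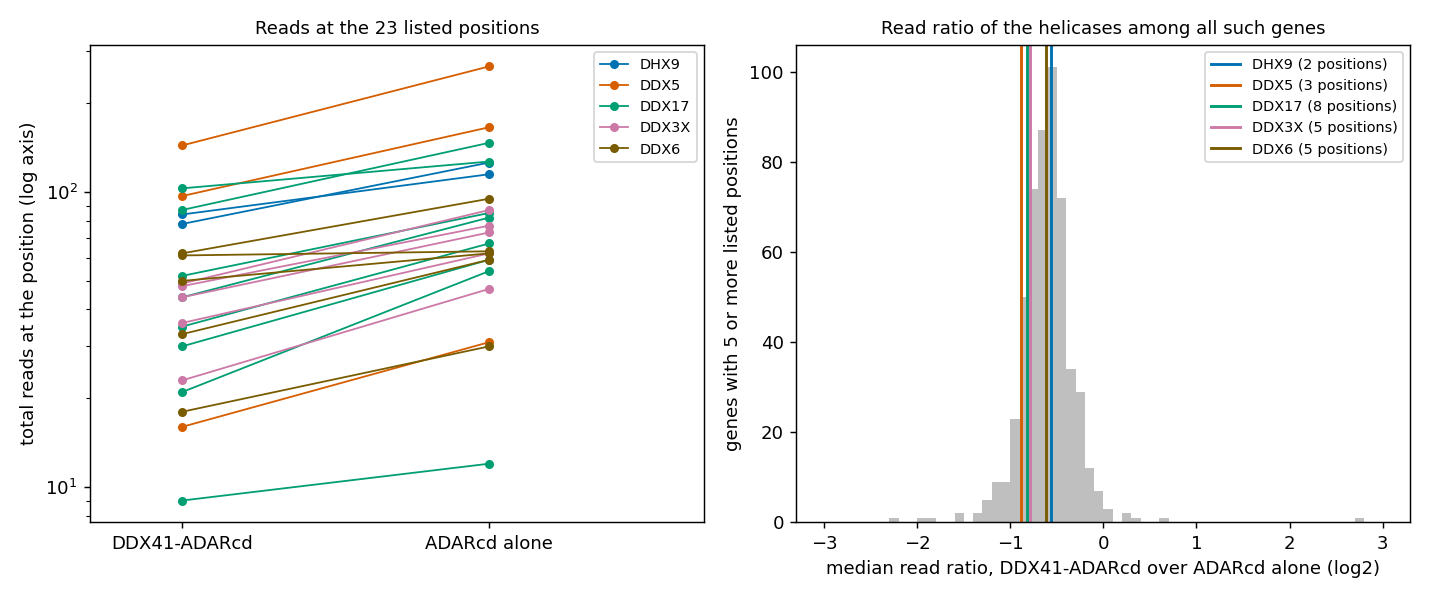
Left, total reads (log axis) at each of the 23 listed helicase positions in DDX41-ADARcd and ADARcd alone, joined by position. Right, the median read ratio (log2) of the 527 genes with 5 or more listed positions as bars and the 5 helicases as lines, which all lie inside the bulk of the genes.

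Other helicases of the family, DDX41 aside, were also listed at few positions. Of 61 other DExD/H-box genes, 24 had 42 listed positions in DDX41-ADARcd against ADARcd alone. With the empty vector as control, 7 had 10 in DDX41-ADARcd and 7 had 21 in ADARcd alone. In each list 0 of these positions were called, beside 0.282%, 0.0% and 0.203% of all tested positions in that order of lists. At such shares a count of 0 is no result about these genes. In each list 0 of these positions had 5 or more edited reads, so the DHX9 position with 9 exceeded all of them. Against ADARcd alone, SNRNP200, the helicase that unwinds U4 from U6 in the spliceosome, had 7 positions in DDX41-ADARcd. DDX21, a nucleolar helicase, had 4, and DDX24, DHX36 and EIF4A1, the helicase of the cap-binding complex, had 3 each. The 61 genes include neither DDX41 nor DDX3Y, the paralogue of DDX3X, which was looked up after its values were seen. DDX41, which the fusion carries, had 23 positions in DDX41-ADARcd against ADARcd alone, with at most 8 edited reads and none called. With the empty vector as control it had 0 in either library. DDX3Y had 5 positions in DDX41-ADARcd against ADARcd alone, 0 in DDX41-ADARcd with the empty vector as control and 3 in ADARcd alone, each with 1 edited read and none called. Against the empty vector, EIF4A1 had 3 positions in DDX41-ADARcd, SNRNP200 had 2, and DDX18 and DDX21 had 1 each. In ADARcd alone, EIF4A1 had 9 positions at a median depth of 282 reads, DDX21 and DHX15 had 3 each and DDX39A had 2.

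**Figure D4:**
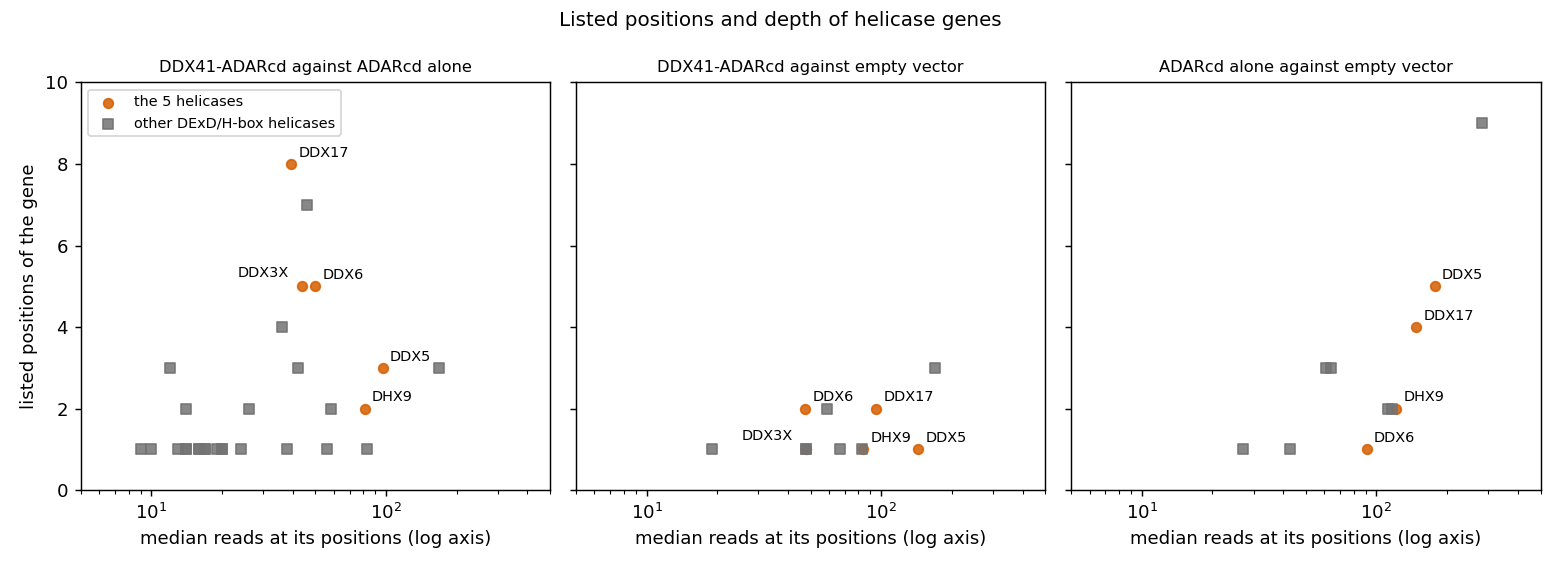
Number of listed positions of each helicase gene with at least 1, against the median reads of the first library at those positions (log axis), 1 panel per list, with the 5 helicases as labelled circles and other family members as squares. DDX41 and DDX3Y are not drawn. Among the genes drawn, DDX17 with 8 positions is highest in the list of DDX41-ADARcd against ADARcd alone. EIF4A1 with 9 is the highest square in that of ADARcd alone.

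Genes whose products work with the 5 helicases were also listed without a called position. Of 12 genes of decapping and repression that act with DDX6, 6 had 13 positions in DDX41-ADARcd against ADARcd alone. With the empty vector as control, 1 had 4 in DDX41-ADARcd and 1 had 3 in ADARcd alone. CNOT1, the scaffold of the deadenylase complex, had 6, 4 and 3 of them in those lists, and the decapping enzyme DCP2 and ATXN2L had 2 each in the first. DROSHA, the nuclease of the Microprocessor, had 3, 1 and 0 positions, and its partner DGCR8 had 0 in each list. Of 9 genes of translation and RNP assembly that act with DDX3X and DHX9, 7, 6 and 7 were listed, with 72, 58 and 96 positions. PABPC1, the poly(A)-binding protein, had 17, 20 and 34 of these at median depths of 401, 464 and 754.5 reads in the edited library, and HNRNPU, a nuclear RNA-binding protein, had 27, 25 and 33. Called positions numbered 0 for each of these sets of genes, beside 0.282%, 0.0% and 0.203% of all tested positions, the added ones included. At such shares a count of 0 is no result about these genes.

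Genes with the most similar listing were found by the Euclidean distance over 6 values, the log2 of the number of positions plus 1 and the log2 of the median depth of the first library in each of the 3 lists, among 763 genes present in all 3. For DHX9 these were SSRP1 (distance 0.45) and EIF5 (0.46), for DDX5 CAPZB (0.34) and CDC42 (0.63), for DDX17 XPO1 (0.70) and FUT4 (0.75), and for DDX6 SSB (0.55) and WDFY1 (0.58). DDX3X was absent from the list of ADARcd alone and could not be placed. The measure rests on counts and depth and not on position, sequence or function.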

How the data were processed

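RNA from THP-1 cells of 3 groups, 1 library each (DDX41-ADARcd, ADARcd alone, empty vector), was sequenced. Values in the 3 deposited site lists are counts, per the file headers: the reads of each base, and their total, at a position in each of 2 libraries, not normalized. The submitters' processing notes name CASAVA 1.4, FastQC 0.11.7, STAR 2.5 and mm10, a mouse build, without saying what each was used for. How sites were called is not given in the sources used here. List titles name the libraries. The first of them was read as the edited library and the gDNA/wtRNA columns as the control. Totals at shared positions were equal between lists for DDX41-ADARcd (3114 of 3114) and the empty vector (402 of 402). Coordinates were tested against human GENCODE 29 on GRCh38: each of the 35 positions is A on a transcript of its gene. Entries repeating a position were joined (184, 62 and 134).

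Python 3.11.15, scipy 1.17.1 and pandas 2.3.3 gave two-sided Fisher's exact tests at positions with at least 10 reads in both libraries, with Benjamini-Hochberg adjustment over all positions of a comparison at a threshold of 0.05, checked on simulated data. For DDX41-ADARcd against ADARcd alone, positions in both lists that use the empty vector were added. Intervals of shares are Clopper-Pearson and those of medians come from order statistics. Regions use 1 GENCODE transcript per gene. No protein reference was used here, so amino acid changes come from the coding sequence and the standard code.

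The genes, lists and tests were chosen with earlier results of these data known. Named positions are, per gene and list, that with most edited reads, any with 2 or more and any with an unadjusted p under 0.05. The others were named after their values were seen. Alternatives were other minimums of reads and of edited reads, Bonferroni adjustment, reads halved, pooled levels, entries as deposited and positions inside the genes.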

Additional observations from a re-analysis of the deposited data

How the results depend on the processing

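The count of called helicase positions was 0 in each of the 3 comparisons under every alternative minimum of reads, with Bonferroni adjustment, with reads halved and with 2 or more edited reads required. This is no evidence of robustness, since each position had fewer edited reads than even an unadjusted p under 0.05 needs. For most positions 1 edited read against 0 fixed the outcome in advance. Over all positions, these settings called 19 to 27 of 1571 to 10809 tested for DDX41-ADARcd against ADARcd alone. They called 0 of 649 to 3516 for DDX41-ADARcd against the empty vector. For ADARcd alone they called 7 to 14 of 1618 to 6413. In the main setting, all 26 calls for DDX41-ADARcd against ADARcd alone were at added positions edited in both libraries. At such counts 0 is no result about the helicases. The number listed depended on support. With 2 or more edited reads required, 1 of 23 positions was left in DDX41-ADARcd against ADARcd alone. With the empty vector as control, 0 of 7 were left in DDX41-ADARcd and 2 of 12 in ADARcd alone, and the median levels became 4.0% in DDX41-ADARcd against ADARcd alone and 4.44% in ADARcd alone. With at least 20 reads in both libraries, 2 of the 7 of DDX41-ADARcd and 3 of the 12 of ADARcd alone were left against the empty vector. Pooling the reads of the 12 positions of ADARcd alone gave a level of 1.15%, and leaving out the DHX9 position with 9 edited reads, an alternative chosen after seeing the data, gave a median of 0.617%. No median exists for DDX41-ADARcd against the empty vector with 2 or more edited reads, and the read ratio could not be had over positions shared with ADARcd alone against the empty vector, of which there were 0. No paired analysis was possible because each group has 1 library. Depth in the empty vector, 12 reads or fewer at 5 of 12 positions of ADARcd alone and at 3 of 7 of DDX41-ADARcd, limits what these comparisons could detect.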

Other observations

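Reads with a base other than A or G at the helicase positions give the rate of other mismatches. At the 23 positions of DDX41-ADARcd against ADARcd alone they were 3 of 1224 reads in DDX41-ADARcd (0.245%, 0.0506 to 0.715) and 6 of 1993 in ADARcd alone (0.301%, 0.111 to 0.654), beside 24 edited reads (1.96%) in DDX41-ADARcd. At the 7 positions of DDX41-ADARcd against the empty vector they were 0 of 561 reads in DDX41-ADARcd and 0 of 132 in the empty vector, beside 7 edited reads. At the 12 positions of ADARcd alone they were 1 of 1823 reads in ADARcd alone (0.0549%, 0.00139 to 0.305) and 0 of 202 in the empty vector, beside 21 edited reads (1.15%) in ADARcd alone. The positions were listed for their edited reads, so the edited share is no estimate of an error rate and was not tested against the others.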
